A study of Homo sapiens with 18 samples.

Results

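The forkhead transcription factor FOXA1 was studied in LNCaP cells, a line derived from a lymph node metastasis of prostate cancer that keeps a luminal character and grows in response to androgen. The results concern 2 FOXA1 point mutants, G87R and L388M, whose altered residues lie on either side of the forkhead domain. Their arrays were pooled and set against those of wild-type FOXA1 within each treatment: 4 mutant arrays against 2 wild-type arrays, 6 of the 18 arrays in the series. All 11590 genes with a probe detected on at least 2 arrays entered, which is every gene tested in the series.

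FOXA1 is a pioneer factor: its forkhead domain binds DNA in closed chromatin, and regions on both sides of that domain contact histones and regulate transcription. In prostate epithelium FOXA1 opens sites used in the androgen response, and it holds down genes of inflammation and of other cell states. Point mutations recur in prostate cancer and cluster in the forkhead domain, with others spread over the rest of the protein.

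The 3 groups were cells labelled WT+KD, 87+KD and 388+KD. All of them carried a short hairpin against FOXA1 (shFOXA1) and a FOXA1 construct: wild type, G87R or L388M. Each was kept in medium with 5% charcoal-stripped serum for 3 days and then given ethanol or the synthetic androgen R1881 at 1 nM for 24 h. The reference for loss of FOXA1 was GFP+KD (the hairpin with GFP) against GFP+pGIPZ (control vector with GFP), 4 arrays that neither the pooled comparison nor the comparison of the mutants with each other uses. Each condition had 1 array, so the treatments stood in for replicates: the error of every value is the scatter left after construct and treatment were fitted over all 18 arrays, and p-values measure that scatter, which includes any difference in androgen response. The labels give no separate cultures or clones.

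The luminal markers KRT8, KRT18, EPCAM, CDH1, KLK3 and HOXB13 were detected on 6 of 6 arrays. KRT5 and KRT14 (basal), CHGA, SYP and INSM1 (neuroendocrine), PTPRC and CD3D (leukocyte), PECAM1 and CDH5 (endothelial) and COL1A2, DCN and LUM (fibroblast) were detected on 0 of the 6, while CD68 and VWF were detected on 6 and COL1A1 on 5. In bulk RNA, fewer cells of a kind and less RNA per cell cannot be told apart. Between 15922 and 17127 probes were detected on the 6 arrays, the fewest on the 2 L388M arrays (16632 in ethanol and 15922 in R1881). The 87+KD ethanol array stood apart: its mean log2 intensity over all genes was 7.16, against 7.11 to 7.14 on the other 5 arrays. Some results are also given without it or in R1881 alone. The counts of genes with all mutant arrays on one side of wild type, and most single-gene values, are not.

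FOXA1 itself was measured by a probe whose place relative to the introduced constructs is not known here. On the log2 scale it read 11.93 in ethanol and 11.73 in R1881 in GFP+pGIPZ cells, and 11.16 and 11.07 in GFP+KD cells, a knockdown difference of -0.71 ± 0.12 (SE; limma, adjusted p = 0.00287). It read 10.86 and 10.68 with wild type, 10.89 and 10.61 with G87R, and 10.96 and 10.72 with L388M. The 3 groups of cells were thus level with each other on this probe, and the pooled difference was 0.03 with a 95% interval from -0.21 to 0.26 (-0.16 under median scaling). All 3 read below GFP+KD cells, which had no FOXA1 construct. The probe therefore showed no gain from the constructs and does not tell whether they were expressed equally.

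Pooled, G87R and L388M cells could not be told from wild-type cells at any single gene. Of 11590 genes, 0 passed an adjusted p of 0.05 (0% called), 198 (1.71%) had an unadjusted p under 0.05, and the smallest adjusted p was 0.954 (limma, Benjamini-Hochberg over all genes). The differences ran from -0.77 to 0.80 on the log2 scale around a median of 0.01. The median standard error was 0.16, and for 11294 genes (97.4%) the unadjusted 95% interval lay within 1 log2 unit on either side of 0, so that a shared 2-fold change was outside the interval of nearly all genes. The median half-width of the interval was 0.35. Against the same wild-type arrays this fit called 163 genes (1.41%) for D226N, 644 (5.56%) for F266S, 687 (5.93%) for FENG and 1519 (13.1%) for M253K, the other FOXA1 constructs of the series. The M253K ethanol array and the FENG R1881 array also deviated, with mean log2 intensities over all genes of 7.225 and 7.173. The M253K and FENG counts are not given without them.

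**Figure D1:**
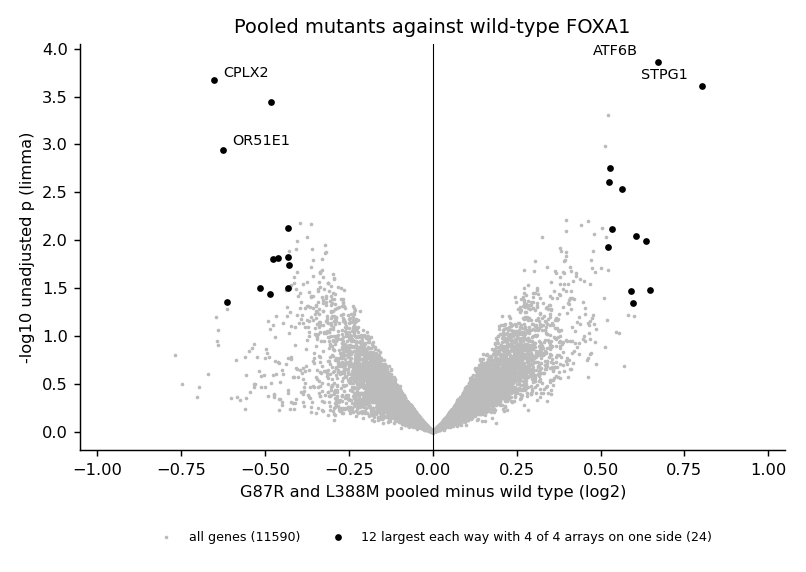
Each grey point is a gene, with the pooled difference of G87R and L388M from wild type on the x axis (log2) and the -log10 of the unadjusted limma p on the y axis. The black points are the 24 genes described next; 0 of 11590 genes passed the adjusted threshold, and differences ran from -0.77 to 0.80.

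All 4 mutant arrays lay above the wild-type array of the same treatment for 1487 genes (12.8% of all genes) and below it for 1136 (9.80%). Of these, 90 above and 84 below also had an unadjusted p under 0.05, and the 12 largest in each direction are described here as values, since none of them was called. The 4 differences of a gene share 2 wild-type arrays. For 28 of the 90, wild type was the lowest of all 9 constructs under both treatments (1.23% of all genes). For 22 of the 84 it was the highest (1.14% of all genes). In those genes the difference from wild type is not particular to G87R and L388M. The 90 and 84 were chosen with wild type on one side of both mutants. The shares of all genes are therefore no expected values for these counts.

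ATF6B, a membrane-bound transcription factor of the unfolded protein response, read 4.47 with wild type, 4.88 with G87R and 5.17 with L388M in ethanol, and 4.44, 5.24 and 5.21 in R1881. It was not detected on either wild-type array and was detected on all 4 mutant arrays, so its fold is a bound: at least 1.233-fold higher in the mutants, with a fitted difference of 0.67 ± 0.12 (SE; adjusted p = 0.954). A bound sets the mean of the bright arrays against the dimmest detected signal of the dim ones. It carries no sampling error, so here and below it describes these arrays only.

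STPG1, a sperm-tail protein gene, read 4.30, 5.06 and 5.40 in ethanol and 4.34, 5.07 and 4.97 in R1881 with wild type, G87R and L388M, again undetected on both wild-type arrays, and was at least 1.23-fold higher (fitted difference 0.80 ± 0.16, adjusted p = 0.954). Without background correction the fitted difference was 0.27 for STPG1 and 0.21 for ATF6B. Both genes sat near the floor of the scale, where the lowest readings are about 4.2.

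Among genes that were measured on both wild-type arrays, HOOK2, a microtubule adaptor, read 6.97, 8.15 and 7.52 in ethanol and 7.22, 7.44 and 7.80 in R1881 in the same order (0.64 ± 0.21). ELOVL1, an elongase of very long fatty acids, read 6.09, 6.89 and 6.75, then 6.82, 7.04 and 7.55 (0.60 ± 0.20). TOR3A, a torsin ATPase of the endoplasmic reticulum, read 6.42, 6.69 and 6.97, then 6.22, 6.86 and 6.90 (0.53 ± 0.13). In these 3 genes both mutants lay above wild type in each treatment, and their adjusted p was 1.

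The other 7 with higher mutant arrays were MCM3AP-AS1, MYBBP1A, SLC9A4, EXT1, DNMT3B, ABCA12 and PIGV, with pooled differences from 0.52 to 0.65. EXT1, a polymerase of heparan sulfate chains, was 0.58 higher with G87R and 0.55 with L388M, the mutants being near each other. PIGV, a mannosyltransferase of the GPI anchor, was 0.11 higher with G87R and 0.93 with L388M, so that its pooled value stands for neither mutant. DNMT3B, a de novo DNA methyltransferase, had 3 probes; the one used gave 0.53 and the other 2 gave -0.01 and 0.00.

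Below wild type, OR51E1, an olfactory receptor gene that is highly expressed in prostate, had the largest difference among these genes that were detected on all 6 arrays. It read 7.19 with wild type, 6.51 with G87R and 6.42 with L388M in ethanol, and 6.83, 6.28 and 6.33 in R1881. The mutant arrays all lay under both wild-type arrays, and the mutants were close to each other: the pooled difference was -0.62 ± 0.15 (95% interval -0.95 to -0.30, adjusted p = 1), and G87R minus L388M was 0.02 with an interval from -0.35 to 0.39. OR51E1 also had the largest decrease on knockdown, from 8.41 and 7.86 in control cells to 5.52 and 5.47 in GFP+KD cells (-2.64, adjusted p = 6.48e-07). Its pooled difference was -0.37 without background correction.

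CPLX2, a complexin of synaptic vesicle fusion, read 5.24, 4.51 and 4.54 in ethanol and 5.11, 4.34 and 4.70 in R1881 for wild type, G87R and L388M. It was detected on both wild-type arrays and on 0 of 4 mutant arrays, and was at least 1.235-fold lower in the mutants (fitted difference -0.65 ± 0.13, adjusted p = 0.954). ACY3, an aminoacylase, showed the same detection pattern at 4.99, 4.63 and 4.43, then 5.05, 4.54 and 4.57 (-0.48 ± 0.10). Without background correction CPLX2 was at -0.21 and ACY3 at -0.15. For both genes each mutant array lay below both wild-type arrays.

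The other 9 with lower mutant arrays were COXFA4L2, RNF170, AFMID, SPEM2, NEDD1, QPCTL, PPIL6, ARSA and NTAQ1, from -0.61 to -0.43. COXFA4L2 (listed earlier as NDUFA4L2), a mitochondrial protein made in hypoxia, was at -0.24 with G87R and -0.99 with L388M. NEDD1, which brings gamma-tubulin to the spindle, was at -0.47 and -0.46 in the 2 mutants. For AFMID and ARSA a second probe gave a pooled difference of the opposite sign (0.23 against -0.49, and 0.25 against -0.43).

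**Figure D2:**
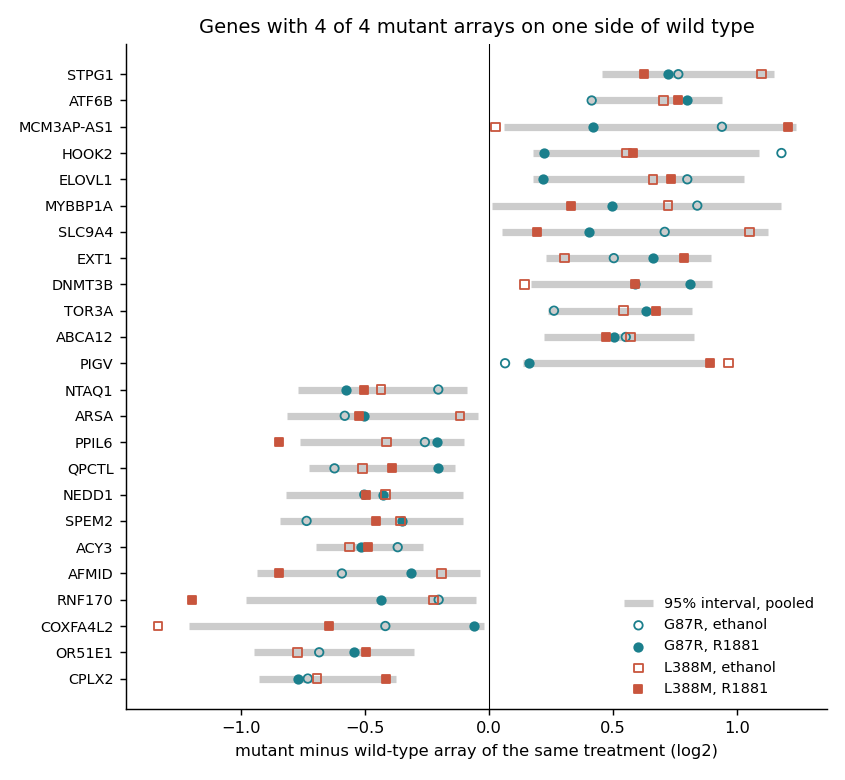
Each row is one of the 24 genes with 4 of 4 mutant arrays on one side of wild type, and each symbol is a mutant array minus the wild-type array of the same treatment (log2; circles G87R, squares L388M, open ethanol, filled R1881); grey bars are 95% intervals of the pooled difference. The 4 symbols lie close together for OR51E1, NEDD1, ACY3 and ABCA12 and far apart for PIGV, COXFA4L2 and MCM3AP-AS1.

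The comparison of the mutants with each other needs no wild-type array, and here 1 of 11590 genes was called (0.00863%), with 306 (2.64%) at an unadjusted p under 0.05. The gene was PI3, which encodes elafin, an inhibitor of neutrophil elastase. PI3 read 7.70 with G87R and 9.07 with L388M in ethanol, and 7.64 and 9.14 in R1881, against 7.81 and 7.92 with wild type. L388M was above the other 2 constructs under both treatments, while G87R was slightly below wild type. G87R minus L388M was -1.43 ± 0.13 (SE; limma, adjusted p = 0.000851), or 2.70-fold more in L388M cells, and L388M minus wild type was 1.24 (adjusted p = 0.0045; PI3 was the 1 gene, 0.00863%, called there). The pooled PI3 value of 0.52 is thus the mean of -0.20 for G87R and 1.24 for L388M. PI3 was no longer called under median scaling (adjusted p = 0.203), nor with only the 6 arrays in the fit (adjusted p = 0.13); over the 17 alternatives with a test its adjusted p ran from 0.000106 to 0.203.

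Genes next in rank were secreted or immune genes with the same order. CCL2, a chemokine for monocytes, read 6.69 with G87R and 7.88 with L388M in ethanol and 6.24 and 7.29 in R1881 (-1.12 ± 0.16, adjusted p = 0.0522). MMP7, the protease matrilysin, read 8.86 and 10.02, then 9.27 and 10.46 (-1.18 ± 0.17, adjusted p = 0.0522). IGFBP3, a binding protein of insulin-like growth factors, read 8.80 and 9.71, then 8.36 and 9.57 (-1.06 ± 0.16, adjusted p = 0.0556). In each of them L388M lay above both G87R and wild type under both treatments. CCL2 and IGFBP3 were singled out after their values were seen. With probes detected on all 18 arrays, an intensity trend or array weights, CCL2, MMP7 and IGFBP3 were called (limma, adjusted p from 0.0174 to 0.033). None of them was called under median scaling (adjusted p = 0.905) or with only the 6 arrays in the fit (adjusted p from 0.205 to 0.296). Without the 87+KD ethanol array, which leaves G87R with 1 array, their differences were -0.99, -1.06 and -1.10. These are sizes only and do not bear on whether the genes are called.

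HLA-DRA, the alpha chain of an MHC class II molecule, was -1.17 ± 0.20 (limma, adjusted p = 0.129, with 0.0247 under array weights and 0.905 under median scaling). MGP, a matrix protein that blocks calcification, was -1.32 ± 0.38 (adjusted p = 0.999). SAA1, an acute phase protein, was -1.13 ± 0.31 with the same adjusted p, and 1 of its 3 probes gave -0.01. Second probes of MMP7 (-1.04), IGFBP3 (-0.54), HLA-DRA (-0.64) and CXCL8 (-0.59) had the sign of the first. Of the 10 genes with the smallest p, 10 were higher in L388M and 9 were genes that knockdown had raised (4.56% of all genes). The p-values and the knockdown calls use the same error for each gene, from 1 fit. Genes with a small error can therefore pass both, and the share of all genes is no expected value for these counts. Of the 25 with the smallest p the counts were 21 and 17, and of the 50, 33 and 26. Over all 306 genes with an unadjusted p under 0.05, L388M was higher for 151 and G87R for 155.

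**Figure D3:**
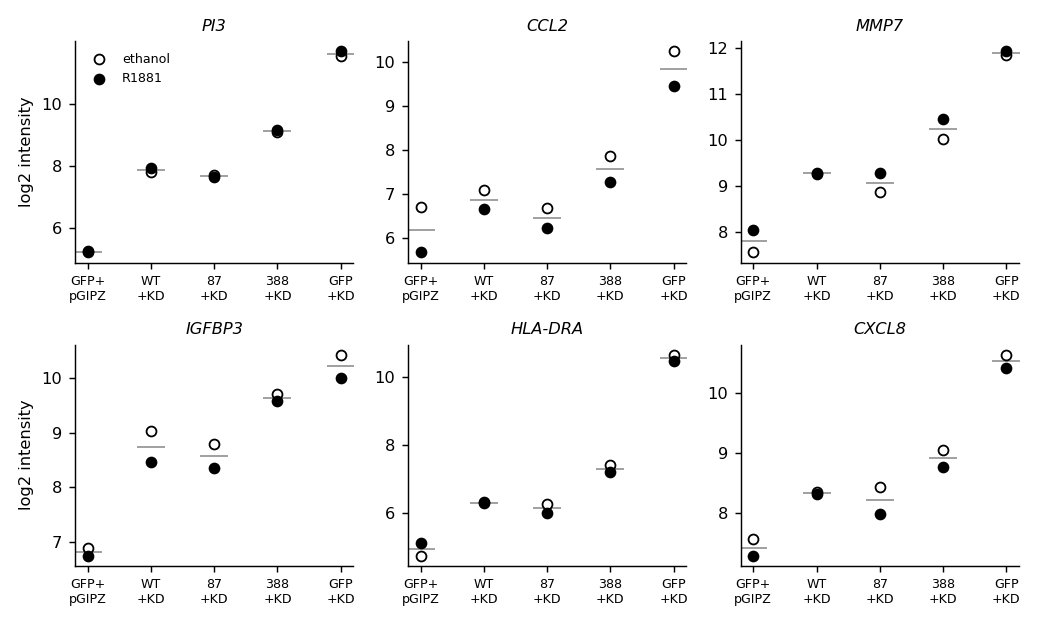
Log2 intensity on each array (open circles ethanol, filled circles R1881, grey dashes the mean of both) of 6 genes in control cells, cells with wild-type FOXA1, G87R or L388M on the hairpin, and knockdown cells. L388M lies above wild type and G87R for the 6 genes under both treatments, and GFP+KD lies highest.

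RefSeq promoter windows (build GRCh38.p14, 250 bases before the start site to 50 after it) were available for 7 of those 10 genes and for 9354 of all genes tested. Both strands were searched for a forkhead motif (TGTTTNC), the consensus NF-kB motif and an AP-1 motif (TGANTCA), and no matches overlap in the windows shown. Matches were found in 3 of the 7, MMP7, CXCL8 and CHI3L2 (NF-kB letters). The windows of MMP7 and CXCL8 are printed to show where these letters stand in genes that read higher with L388M, matches in capitals, 5′ to 3′ on the gene's strand.
MMP7, chr11:102530698-102530997, minus strand: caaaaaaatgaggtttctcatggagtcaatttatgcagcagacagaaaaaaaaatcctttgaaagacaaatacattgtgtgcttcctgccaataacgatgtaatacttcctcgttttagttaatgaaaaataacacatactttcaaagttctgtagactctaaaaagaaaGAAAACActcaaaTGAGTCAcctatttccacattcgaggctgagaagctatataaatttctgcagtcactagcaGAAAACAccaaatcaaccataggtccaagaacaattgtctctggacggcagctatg
CXCL8, chr4:73740319-73740618, plus strand: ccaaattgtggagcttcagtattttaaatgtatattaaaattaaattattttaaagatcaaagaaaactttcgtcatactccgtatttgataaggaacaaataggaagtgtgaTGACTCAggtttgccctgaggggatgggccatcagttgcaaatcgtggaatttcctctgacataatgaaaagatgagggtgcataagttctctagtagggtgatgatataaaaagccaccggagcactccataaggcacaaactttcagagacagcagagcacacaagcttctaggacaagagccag
The capitals in MMP7 are the forkhead letters on the opposite strand, at both outer places, and the AP-1 letters between them; the capitals in CXCL8, which encodes interleukin-8, are AP-1 letters. The forkhead letters were in 12.6% of all promoter windows and in 15.1% of the 417 windows of genes raised by knockdown. The AP-1 letters were in 4.4% and 7.2%, and the NF-kB letters in 12.6% and 15.1%. In the 343 windows of genes lowered by knockdown the shares were 9.9% (forkhead), 4.1% (AP-1) and 10.8% (NF-kB). A match describes the letters of a window and is no sign of binding.

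The knockdown comparison gave a reference direction from arrays that the mutants and wild type do not share. Knockdown raised 528 genes (4.56% of all) and lowered 434 (3.74%) at an adjusted p under 0.05. Averaged over the raised genes, log2 intensity was 6.43 in ethanol and 6.45 in R1881 in control cells and 7.75 and 7.77 in knockdown cells. It was 6.88 and 6.83 with wild-type FOXA1, 6.88 and 6.81 with G87R, and 7.02 and 7.00 with L388M. G87R was level with wild type in both treatments, and L388M stood slightly toward the knockdown cells in both.

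Gene by gene, L388M was above wild type under both treatments for 291 of the 528 raised genes (55.1%, against 26.9% of all genes) and below it for 52 (9.8%, against 24.4%). For G87R the counts were 119 above (22.5%, against 28.5% of all genes) and 148 below (28.0%, against 22.9%). Of the 434 lowered genes L388M was below wild type for 228 (52.5%, against 24.4%) and above for 49, and G87R was below for 125 and above for 110. The median differences from wild type over raised genes were 0.12 for L388M and -0.01 for G87R, and over lowered genes -0.09 and 0.01.

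Without the wild-type arrays, L388M was above G87R under both treatments for 288 of the 528 raised genes, against 23.3% of all genes, and G87R was above L388M for 53, against 28.6% of all genes. Of the 434 lowered genes, G87R was above for 223 and L388M for 46. An unadjusted p under 0.05 was reached by 63 raised genes with L388M higher and 0 with G87R higher, and by 25 lowered genes with G87R higher and 1 with L388M higher, beside 151 with L388M higher and 155 with G87R higher among all 11590 genes. These p-values and the knockdown calls again share the error of each gene. The median of G87R minus L388M was -0.12 over raised genes and 0.11 over lowered genes, beside 0.02 over all genes. Per treatment it was -0.09 in ethanol and -0.15 in R1881 over raised genes, and 0.15 and 0.08 over lowered genes, so the pattern is also seen in R1881, where the deviating array is not used: L388M was above G87R for 410 of 528 raised genes (77.7%, against 51.1% of all) and below for 296 of 434 lowered genes (68.2%, against 48.8%). Across the 11590 genes, which are not independent replicates, G87R minus L388M had a Pearson r of -0.32 with the knockdown difference (Spearman rho -0.21). The L388M arrays had the fewest detected probes; the part of this in the pattern was not tested.

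Pooling the mutants averaged these patterns. The pooled median was 0.06 over raised genes and -0.05 over lowered genes, beside 0.01 over all genes. All 4 mutant arrays were above wild type for 87 raised genes (16.5%, against 12.8% of all) and below for 24 (4.55%, against 9.80%); for lowered genes the counts were 24 above and 83 below. Under median scaling, which moved the median of all genes to -0.13, the raised genes had a pooled median of -0.00 and the lowered genes -0.22, that is 0.12 above and 0.09 below the median of all genes.

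**Figure D4:**
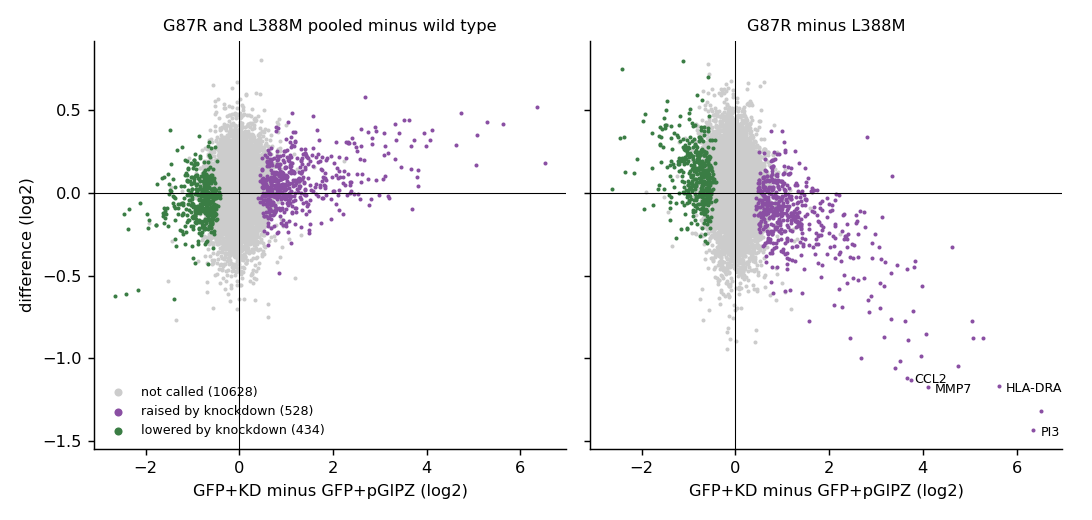
Each point is a gene, with the knockdown difference (GFP+KD minus GFP+pGIPZ, log2) on the x axis and, on the y axis (log2), the pooled difference from wild type (left) or G87R minus L388M (right); purple genes were raised and green genes lowered by knockdown. On the right, most of the 528 raised genes lie under 0 and the 434 lowered genes mostly lie above it, with PI3 at -1.43.

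The 8 genes that knockdown raised most were MGP, PI3, HLA-DRA, RGS4, PIP, S100A9, S100A8 and S1PR3, with knockdown differences from 4.62 to 6.52. L388M was above wild type by 0.45 to 1.24 in these 8, and G87R lay between -0.48 and 0.12 of it. RGS4, which limits signalling of G protein-coupled receptors, read 6.78 with wild type, 6.79 with G87R and 7.57 with L388M in ethanol, and 7.90, 7.87 and 8.85 in R1881. PIP, the prolactin-induced protein, read 6.75, 6.87 and 7.49, then 6.86, 6.55 and 7.70. S100A8, a subunit of calprotectin, read 4.70, 4.58 and 5.57, then 5.28, 5.33 and 6.42. None of the 8 was called in the pooled comparison.

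The 8 that knockdown lowered most were OR51E1, TFF3, COXFA4L2, RLN1, DDC, MCCC2, SLC45A3 and WNT5A. L388M was below wild type in all 8, from -0.16 to -0.99, and G87R was between -0.61 and 0.09. TFF3, a trefoil peptide of mucosal secretions, read 9.60, 9.73 and 9.29 in ethanol and 9.49, 9.43 and 9.21 in R1881. SLC45A3, the prostate protein prostein, read 9.38, 9.50 and 9.23, then 11.15, 11.11 and 10.98. For OR51E1 both mutants had nearly the same difference from wild type, -0.61 for G87R and -0.63 for L388M, and it too was not called.

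Gene lists were chosen with earlier results of these data known, so their directions are no independent evidence, and 0 members of any list were called in the pooled comparison (0% of all genes). Of 10 measured genes of alarmins and protease inhibitors, 9 were raised by knockdown. L388M was above G87R under both treatments for 9 (23.3% of all genes) and G87R above for 0 (28.6% of all genes). PI3 was the called member; SLPI, another elastase inhibitor, read 6.12 with G87R and 6.88 with L388M in ethanol and 6.04 and 6.99 in R1881. The list's median G87R minus L388M was -0.78. S100A7 was the exception, with equal readings in the mutants (4.45 and 4.49, then 4.56 and 4.56) near the floor.

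Of 16 measured genes of inflammatory cytokines and the acute phase, L388M was above G87R under both treatments for 11 (23.3% of all genes). G87R was above for 0 (28.6% of all genes). The list's median G87R minus L388M was -0.23, and 12 members were raised by knockdown. CCL8, a chemokine, read 5.80 and 6.80, then 5.43 and 6.40. LCN2, an iron-scavenging lipocalin, read 9.61 and 10.26, then 9.16 and 10.04. CXCL8 read 8.44 and 9.05, then 7.99 and 8.77. TNF, IL1B and ICAM1 read low in both mutants, at 5.21 or less. Of 6 measured MHC class II genes, L388M was above for 5 and G87R for 0, beside the same shares of all genes. They were led by HLA-DRA and by CD74, the invariant chain (4.97 and 5.57, then 4.52 and 5.35). Adjusted p-values of all these members other than PI3 were 0.0522 or more.

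Genes of hypoxia and glycolysis had the opposite order. G87R was above L388M under both treatments for 21 of 27 members (28.6% of all genes) and L388M above for 0, with a median of 0.31; 6 of the 27 were lowered by knockdown and 0 raised. ENO2, the neuronal enolase, read 8.99 with G87R and 7.83 with L388M in ethanol and 8.58 and 8.14 in R1881 (0.80 ± 0.29, adjusted p = 0.999). PFKFB4, which sets the level of a glycolytic activator, read 9.74 and 9.10, then 9.97 and 9.77. The median was 0.44 in ethanol, where the deviating 87+KD array is used, and 0.14 in R1881, where G87R was above for 22 of 27 (48.8% of all genes). None of the 27 was called, and wild type lay between the mutants by the list's medians, 0.09 for G87R and -0.19 for L388M.

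All 4 mutant arrays were above wild type for 8 of 32 genes of the G2 and M phases (12.8% of all genes) and below for 0 (9.80%), with medians of 0.13 for G87R and 0.09 for L388M. Knockdown had lowered 12 of these 32 genes and raised 1, so the L388M median here did not lie toward the knockdown direction. PLK1, a mitotic kinase, read 5.00, 5.35 and 5.10 in ethanol and 4.83, 5.08 and 5.28 in R1881 for wild type, G87R and L388M, and KIF20A, a mitotic kinesin, read 6.40, 6.71 and 6.84, then 6.46, 6.52 and 6.47. For 27 genes of S phase, of which knockdown had lowered 8 and raised 0, the counts were 2 above and 3 below, with medians of -0.03 and -0.02. Of 21 genes of cholesterol and fatty acid synthesis, 7 were above in all 4 arrays and 0 below, with medians of 0.13 for G87R and 0.01 for L388M, beside 0.02 and 0.01 over all genes; DHCR7, the last enzyme of cholesterol synthesis, read 7.50, 8.07 and 7.96, then 8.30, 8.35 and 8.35. In R1881 alone, where the deviating array is not used, the pooled medians of the G2/M and cholesterol lists were 0.04 and -0.02, against 0.13 and 0.15 in ethanol, and the cholesterol medians of the mutants lay on opposite sides of wild type, at 0.05 and -0.05.

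Steroid metabolism had 5 of 18 members above wild type in all 4 arrays (12.8% of all genes) and 1 below (9.80%). The list's pooled median was -0.08 in ethanol and 0.19 in R1881, so its direction differed between treatments. Among the 5 were CYP1A1, a cytochrome of the aryl hydrocarbon response (4.53, 5.06 and 5.14, then 5.11, 5.26 and 5.50), and UGT2B11, a glucuronidation enzyme (9.08, 9.80 and 9.25, then 9.49, 9.94 and 9.66). AKR1C2, which inactivates dihydrotestosterone, was instead apart in the mutants (7.22 and 8.17, then 6.54 and 7.02). Of 20 interferon response genes, 4 were above and 2 below, near the shares of all genes (12.8% and 9.80%). OASL read 5.26, 5.77 and 5.62, then 4.85, 5.32 and 5.39, while IFI44L read 5.27, 5.08 and 4.54, then 5.02, 4.72 and 4.68. Ribosomal proteins, oxidative phosphorylation and housekeeping genes had pooled medians from 0.00 to 0.02.

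**Figure D5:**
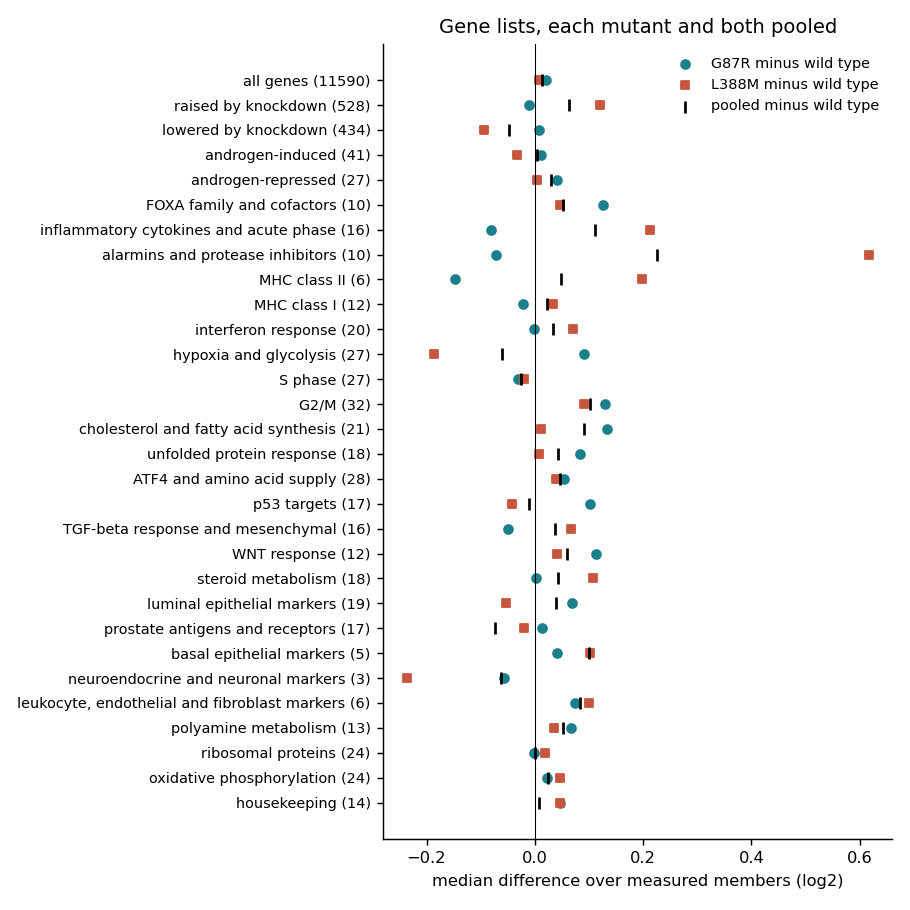
Median log2 difference from wild type over the measured members of each gene list (number in brackets) for G87R (circles), L388M (squares) and both pooled (bars). The mutants part on alarmins and protease inhibitors, inflammatory genes, MHC class II and hypoxia and glycolysis; for G2/M both lie above 0, at 0.13 and 0.09.

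No androgen target was called between the pooled mutants and wild type (0% of all genes). KLK3, which encodes prostate-specific antigen, read 6.75 with wild type, 6.83 with G87R and 6.84 with L388M in ethanol, and 8.60, 8.54 and 8.16 in R1881. TMPRSS2, a serine protease gene, read 10.50, 10.89 and 10.48, then 12.16, 12.14 and 11.96. FKBP5, a chaperone of steroid receptors, read 7.99, 8.18 and 8.08, then 11.34, 11.10 and 11.44. The 3 genes were higher in R1881 in all 3 constructs, and their pooled differences were -0.08, 0.04 and 0.03, with standard errors from 0.18 to 0.24; under median scaling those of TMPRSS2 and FKBP5 were -0.16 and -0.15. Of 41 androgen-induced genes, 4 were above wild type in all 4 mutant arrays and 4 below, with a median of 0.00. Each count is 9.76% of the list, near the shares of all genes (12.8% above and 9.80% below).

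Whether the pooled difference depends on androgen was tested on the change from ethanol to R1881 in each construct. The response of the pooled mutants differed from that of wild type at 0 of 11590 genes (0% called), with 134 (1.16%) at an unadjusted p under 0.05 and a smallest adjusted p of 0.999 (limma). The difference in response was -0.33 ± 0.33 for KLK3 and -0.29 ± 0.46 for TMPRSS2, and its median over the 41 androgen-induced genes was -0.09, beside -0.03 over all genes. The test had 3 residual degrees of freedom and a median standard error of 0.31, and for 6763 genes (58.4%) the unadjusted interval lay within 1 log2 unit of 0.

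Without the 87+KD ethanol array G87R is left with 1 array, so sizes are given. For G87R minus L388M, PI3 was then at -1.45. In that fit ATF6B was at 0.78 and OR51E1 at -0.60, against 0.67 and -0.62 with the array. The median of G87R minus L388M was then -0.15 over the genes raised by knockdown and 0.08 over those lowered. The count of genes called for the pooled mutants was 0 under each of the 17 alternatives run.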

How the data were processed

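RNA of 18 LNCaP conditions was measured on Illumina HumanHT-12 V4 bead arrays, 1 array per condition. The deposited intensity of each probe was not background-corrected or normalized, per the file headers, and came with a detection p-value that the authors deposited beside it. Per the submitters' processing notes GenomeStudio was used; its version is not given in the sources used here. Intensities were background-corrected against detection p-values and quantile-normalized with neqc (limma 3.58.1, R 4.3.3; offset 16) and log2 transformed. Probes with a detection p under 0.01 on at least 2 arrays were kept (20117 of 47303), and the brightest probe stood for each of 11590 genes. Genes were named from the platform annotation, with symbols updated through RefSeq.

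limma was fitted with construct and treatment as additive terms over all 18 arrays (8 residual degrees of freedom, prior 4.59). The R1881 response was fitted on the 9 differences, with G87R and L388M as one class and D226N, M253K and F266S as another. P-values were adjusted over all genes by Benjamini-Hochberg, and genes under 0.05 are called. Precision is limited by how few arrays there were. The additive fit was run on data simulated under its own model with independent noise, which tests the code and not how these arrays vary.

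Genes named are FOXA1, KLK3, TMPRSS2 and FKBP5; the 12 largest in each direction with 4 of 4 arrays on one side and an unadjusted p under 0.05; the 8 largest called in each direction for knockdown; the 5 largest each way for G87R minus L388M; and up to 3 members of each list with the smallest p. Other genes named within lists (CCL2, SLPI, KIF20A and the like) were chosen after their values were seen. The comparison, the members and the 27 lists were chosen with earlier results of these data known. Alternatives covered scaling, background, offset, filter, the authors' processed intensity table, single probes, variance trend, array weights and left-out arrays.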

Additional observations from a re-analysis of the deposited data

Results flagged for a closer look

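For the 120 genes named by the rules, the 4 differences of a mutant array from the wild-type array of the same treatment were searched for 1 that stood apart from the other 3 (Dixon's test), and 4 genes had one. Chance alone marks about 1 in 20 groups. The L388M ethanol array stood apart for ARSA, at -0.12 against -0.50 to -0.58 for the others, and for NDUFV1, at -0.02 against 0.22 to 0.24. The L388M R1881 array stood apart for COL1A1, at 0.40 against 0.16 to 0.18. The G87R R1881 array stood apart for PRIM1, at 0.02 against -0.18 to -0.20.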

How the results depend on the processing

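The pooled count was 0 in the 17 alternatives run, with 111 to 697 genes at an unadjusted p under 0.05, and the count for the R1881 response was 0 in 9. G87R against L388M called 0 genes under median scaling and with only the 6 arrays, 2 without background correction and without the 3 deviating arrays, 3 with an offset of 50, 4 with probes detected on all 18 arrays, and 5 with an intensity trend or array weights, against 1. PI3 kept its sign throughout, from -1.50 to -1.18. Under median scaling the pooled median over genes raised by knockdown reversed to -0.0028, that over lowered genes was -0.22 and G87R minus L388M over lowered genes 0.29; that scaling moved the median of all genes to -0.13 and 0.16. G87R minus L388M over raised genes was -0.067 without background correction, and over lowered genes 0.054 without the 3 deviating arrays. Causes were not tested. Leaving out each of the 6 arrays gave pooled medians of 0.056 to 0.080 and -0.060 to -0.040, G87R minus L388M medians of -0.15 to -0.11 and 0.076 to 0.14, and counts of 0 and 1; a construct left with 1 array is assumed to vary like the others. Of 1093 pooled values of 59 single genes, 29 changed sign, 0 of them in the 38 genes with an unadjusted p under 0.05. Most of the 38 were chosen because all 4 mutant arrays lay on one side of wild type. Their signs could hardly change, so this 0 is no evidence of stability. Under median scaling FOXA1, FKBP5, TMPRSS2, ENO2 and MGP turned to -0.16, -0.15, -0.16, -0.07 and -0.0033. The medians of G87R minus L388M and its single genes were added after seeing the data. No paired analysis was possible because each condition has 1 array and so no replicate number to pair by; treatment is a term of the fit. Signal near background limits STPG1, ATF6B, CPLX2, ACY3, QPCTL and SPEM2.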
